A study of Mus musculus with 6 samples.

Results

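The genes described here are 10 immediate early genes, Fos, Fosb, Fosl2, Jun, Junb, Egr1, Egr2, Egr3, Arc and Npas4. They were matched by symbol to the annotation of a mouse array, where all 10 were found, among 17742 genes measured in all. Junb was read by 2 probes and each of the other members by 1. The study put RNA from female BALB/c mice on 6 single-colour arrays. The labels name brain, ovary and uterus, each from mice with no treatment (mock) and from mice dosed orally with SHT, the herbal preparation Sheng-Hua-Tang, at 200 mg/kg on 7 days in a row. Every group held 1 array, so no difference between 2 arrays has a replicate check. The labels give neither the age of the mice nor whether RNA of several mice was pooled or the tissues came from the same mice.

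Immediate early genes are switched on by transcription factors that a cell already holds, so their messengers rise soon after a stimulus and then fall again. Fos, Fosb, Fosl2, Jun and Junb encode subunits of AP-1, a dimeric transcription factor. Egr1, Egr2 and Egr3 encode zinc finger transcription factors. In brain, Arc, whose protein acts at synapses in receptor endocytosis, and Npas4, a transcription factor of neurons, are widely used as marks of recent neuronal activity. In the ovary and the reproductive tract several members are known to respond to gonadotropins, growth factors and steroid hormones.

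The arrays are named below by their labels, although marker genes went against 4 of the 6. Snap25, which encodes a synaptic vesicle fusion protein, read 58204 on the mock brain array and 60038 on the SHT ovary array, but 210 on the SHT brain array and at most 1601 on the others. Summed over 8 ovarian markers, intensity was 93106 on the SHT brain array and 136242 on the mock uterus array, against at most 4549 elsewhere. Each array correlated best with an array of another tissue label (Pearson over all probes, log2). The closest arrays were mock brain with SHT ovary (0.997), SHT brain with mock uterus (0.981) and mock ovary with SHT uterus (0.972), and each of these pairs holds 1 mock label and 1 SHT label. Array medians ran from 179 to 224. The 95th percentile of 528 olfactory receptor genes, as a set that these tissues should scarcely use, ran from 275 to 542, and readings up to it are said to lie in the background spread. Between closest arrays the median size of a gene's difference was 0.12, 0.25 and 0.34 (log2, in the order above). The pair's median shift (-0.04, -0.29 and 0.45, SHT minus mock) was first taken out. The levels below are unscaled and still hold such shifts. Neighbours in an order of levels that differ by no more than these sizes or shifts are not ranked. Folds are called lower bounds ("at least") where the dimmer array read inside that spread, whose limit then replaced its value. RNA from whole tissue cannot tell fewer cells of a type from less RNA per cell.

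The windows around the gene starts are shown for members that differed between arrays. RefSeq windows of 300 bases (250 before and 50 after a gene's start, mouse GRCm38.p6) were at hand for 7 members, namely Fos, Fosb, Fosl2, Jun, Junb, Egr2 and Npas4. The core of the cyclic AMP response element, TGACG on either strand (CGTCA on the other), stood in the windows of 5 of these 7 genes, Fos, Fosb, Junb, Egr2 and Npas4, that is in 7 of the members' 11 windows, and in 20.8% of all 32851 windows. The full palindrome TGACGTCA, which holds that core on each strand, was in none of the members' windows and in 1.79% of all windows. The CArG box, the binding sequence of serum response factor, was in windows of Egr2 alone and in 1.63% of all. The AP-1 site (TGACTCA or TGAGTCA, each the other's complement) was in no window of the members and in 5.2% of all. Egr2 has 5 listed starts, of which 4 had a CArG box in the window, and 3 of the 5 windows overlap one another. A match is a run of letters and not a shown binding site. The windows of Fos (chr12:85473640-85473939, plus strand), Fosb (chr7:19309996-19310295, minus strand), Egr2 (the third start, chr10:67537619-67537918, plus strand), Npas4 (chr19:4989922-4990221, minus strand) and Junb (chr8:84978699-84978998, minus strand) read 5′ to 3′ along the gene. Capitals mark the TGACG or CGTCA core and, in Egr2, also the CArG box.
Fos: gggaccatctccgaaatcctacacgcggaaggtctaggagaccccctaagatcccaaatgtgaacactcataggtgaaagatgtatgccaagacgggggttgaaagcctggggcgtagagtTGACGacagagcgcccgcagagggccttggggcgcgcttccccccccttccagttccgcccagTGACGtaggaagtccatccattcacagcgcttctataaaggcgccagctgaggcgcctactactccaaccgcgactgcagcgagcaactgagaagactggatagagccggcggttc
Fosb: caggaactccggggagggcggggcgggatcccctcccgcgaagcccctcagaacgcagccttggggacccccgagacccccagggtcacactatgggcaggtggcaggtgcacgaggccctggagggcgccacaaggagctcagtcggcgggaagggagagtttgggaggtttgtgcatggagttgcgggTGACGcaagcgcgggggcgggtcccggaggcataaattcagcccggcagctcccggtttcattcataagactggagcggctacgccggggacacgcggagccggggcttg
Egr2: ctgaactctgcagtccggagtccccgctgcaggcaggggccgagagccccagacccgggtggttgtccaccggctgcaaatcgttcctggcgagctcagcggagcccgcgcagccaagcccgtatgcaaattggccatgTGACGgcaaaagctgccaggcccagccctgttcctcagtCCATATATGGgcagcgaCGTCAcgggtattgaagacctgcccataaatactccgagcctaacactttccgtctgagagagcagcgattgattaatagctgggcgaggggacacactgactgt
Npas4: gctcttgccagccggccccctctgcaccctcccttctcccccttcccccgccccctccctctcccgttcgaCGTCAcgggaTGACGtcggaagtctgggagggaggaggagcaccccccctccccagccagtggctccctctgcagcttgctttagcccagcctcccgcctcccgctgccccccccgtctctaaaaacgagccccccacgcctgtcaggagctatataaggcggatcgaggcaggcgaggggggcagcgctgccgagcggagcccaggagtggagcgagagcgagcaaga
Junb: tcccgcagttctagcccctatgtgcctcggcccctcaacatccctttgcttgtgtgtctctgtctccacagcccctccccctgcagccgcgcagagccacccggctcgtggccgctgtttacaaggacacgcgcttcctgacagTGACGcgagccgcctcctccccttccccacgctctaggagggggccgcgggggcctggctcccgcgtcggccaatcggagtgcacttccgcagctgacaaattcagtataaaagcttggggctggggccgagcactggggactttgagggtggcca

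In Fos the cores began 129 and 66 bases before the start, and in Fosb 60 bases before it. Npas4 held a pair of cores close together, beginning 179 and 169 bases before its start. In the Egr2 window the CArG box began 72 bases before the start and lay between cores at 111 and 55. The core in Junb began 106 bases before the start.

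**Figure D1:**
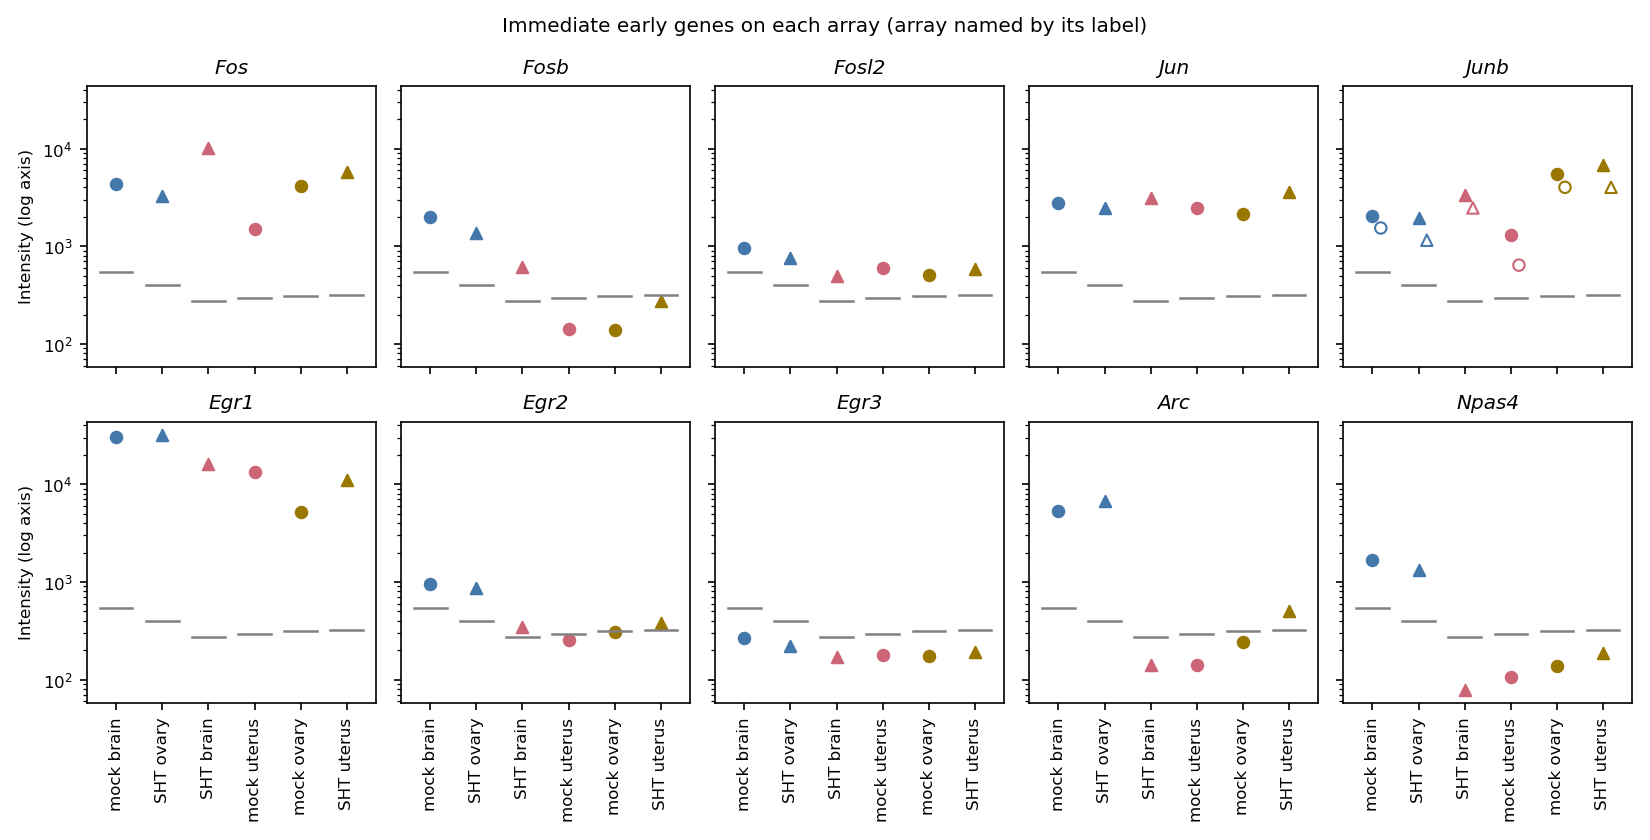
Intensity (log axis) of each member on the 6 arrays, with closest arrays side by side in 1 colour, circles for mock labels and triangles for SHT labels. Open symbols are the second Junb probe, and grey bars mark the upper limit of the background spread on that array. Arc and Npas4 stand far above the bar on the mock brain and SHT ovary arrays only, while Egr3 lies under it on all 6.

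The effectors and markers of neuronal activity separated the arrays most. Arc read 5381 on the mock brain array and 6706 on the SHT ovary array, the pair with high Snap25. It read 499 on the SHT uterus, 244 on the mock ovary, 143 on the mock uterus and 141 on the SHT brain array. The mock brain, SHT ovary and SHT uterus readings were above the background spread and the other 3 inside it. The lower of the 2 high arrays was 10.8-fold above the highest of the other 4. The SHT uterus array, with its Arc reading of 499, had the highest Snap25 (1601) and Mbp (1256, a myelin protein) outside that pair. Other brain markers were not highest there: Slc17a7 read 322, against 366 on the SHT brain array, and Camk2a 94.7, against 155 on the mock uterus array. Of the 7 brain markers measured, 4 lay in the background spread on the SHT uterus array. Whether neural RNA had a part in the Arc reading was not tested.

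Npas4 read 1663 on the mock brain and 1318 on the SHT ovary array. On the other 4 it read from 77.8 (SHT brain) to 187 (SHT uterus), all inside the background spread, so the order among those 4 cannot be read. The lower of the high arrays was 7.07-fold above the highest of the rest. Arc and Npas4 shared the step to the 2 Snap25-high arrays (Pearson r = 0.991 on log2 values over the 6 arrays of different tissue, a description). Npas4 lay in the background spread on 4 arrays and Arc on 3, so this r mainly reflects that step. Egr2 had an r of 0.975 with Arc and 0.966 with Npas4.

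Egr1 and Egr2 were, like Arc, highest on the mock brain and SHT ovary arrays, with smaller steps. Egr1 read 30188 on the mock brain, 32322 on the SHT ovary, 16225 on the SHT brain, 13231 on the mock uterus, 11125 on the SHT uterus and 5155 on the mock ovary array. All 6 readings were far above background, and the Snap25-high arrays did not overlap the others, with a gap of 1.86-fold. Egr2 read 948 and 870 on those 2 arrays (mock brain first), 384 on the SHT uterus, 347 on the SHT brain, 309 on the mock ovary and 257 on the mock uterus array, the last 2 inside the background spread. Its gap was 2.27-fold. Egr3 read from 172 (SHT brain) to 270.0 (mock brain), inside the background spread on all 6 arrays, so its levels are not ordered here.

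Among the Fos genes, Fosb followed the same arrays and Fos did not. Fosb read 1990 on the mock brain, 1369 on the SHT ovary, 617 on the SHT brain, 278 on the SHT uterus, 143 on the mock uterus and 140 on the mock ovary array, the last 3 inside the background spread. The gap between the Snap25-high arrays and the next was 2.22-fold. Fosl2, a Fos-related subunit whose levels tend to be steadier, read 959 and 755 on those 2 arrays (mock brain first) and from 501 to 595 on the other 4, a gap of 1.27-fold.

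Fos read 10174 on the SHT brain, 5742 on the SHT uterus, 4386 on the mock brain, 4096 on the mock ovary, 3236 on the SHT ovary and 1511 on the mock uterus array. The Snap25-high arrays therefore lay in the middle of its range. The extremes, 6.73-fold apart, were the SHT brain and mock uterus arrays, which are closest to each other over all probes.

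The Jun genes differed from each other. Jun read from 2146 (mock ovary) to 3570 (SHT uterus), a range of 1.66-fold. Junb was lowest on the mock uterus array (1319) and highest on the mock ovary (5455) and SHT uterus (6804) arrays, with 3350 on the SHT brain, 2064 on the mock brain and 1949 on the SHT ovary array. Its second probe gave 641, 4014, 4015, 2468, 1539 and 1153 on the same arrays in the same order. Both probes were lowest on the mock uterus array and highest on the mock ovary and SHT uterus arrays. Their ratio ran from 1.34 to 2.06. The arrays with most Junb were those with high Krt5 (36716 on the mock ovary and 29948 on the SHT uterus array, against at most 250.2 elsewhere), a keratin of stratified epithelium. Markers of other tissues were also highest on these 2 arrays. They include Des (13588 on the mock ovary and 7001 on the SHT uterus array) and Smtn (15183 and 15809) of smooth muscle. Hoxa10 (2805 and 6642) and Pgr (19510 and 13506) of the uterus and Ptprc of immune cells (999 and 2854) shared this, but the uterine markers Ltf and Wnt7a did not. The part of any of these tissues in the Junb readings was not tested.

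Of the 9 members above the level floor in the mean of the 6 arrays (the median probe), 6 were higher on both the mock brain and SHT ovary arrays than on each of the other 4, namely Arc, Npas4, Fosb, Fosl2, Egr1 and Egr2. None was lower on both. Among all 10763 genes above the floor, 28.9% were higher on both and 35.2% lower on both. Fos, Jun and Junb overlapped between these arrays. The floor is a mean over the same 6 arrays, so high readings on these 2 arrays help a gene to pass it. Npas4 read inside the background spread on the other 4, and Arc on 3 of them. The counts here and in the lists below therefore describe levels and do not test them. The standard deviation over the 6 arrays (log2) was 2.54 for Arc and 1.92 for Npas4, above 95.7% and 91.1% of genes, and 0.27 for Jun, above 10.2%. The median gene had 0.61.

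The first comparison of the design asked what differed in brain after SHT. On the SHT brain array Arc, Npas4, Fosb and Egr2 were lower and Fos was higher than on the mock brain array, 2 arrays of which only the second has brain markers. Differences are given on the log2 scale, SHT minus mock, relative to the median gene of the pair. Arc differed by -5.21 (at least 19.1-fold lower), Npas4 by -4.38 (at least 5.89-fold lower), Fosb by -1.65 (3.14-fold lower) and Egr2 by -1.41 (2.67-fold lower). Fos differed by 1.25 (2.38-fold higher). All 10 members were above the pair's level floor. A 2-fold threshold was passed upwards by 1 and downwards by 4, where 22.8% of all 10746 genes were higher and 23.2% lower. Under 2-fold were Fosl2 at -0.90, Egr1 at -0.86, Junb at 0.74 and Jun at 0.21. Egr3 lay inside the background spread on both arrays, so no difference is given for it.

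Under the label ovary the same members ran the other way. On the SHT ovary array, which carries the brain markers, Arc was higher than on the mock ovary array by 4.64 (at least 19.5-fold), Fosb by 3.15 (at least 3.98-fold), Npas4 by 3.11 (at least 3.84-fold), Egr1 by 2.51 (5.70-fold) and Egr2 by 1.36 (at least 2.53-fold). Junb was lower, by -1.62 (3.08-fold). The 2-fold threshold was passed upwards by 5 and downwards by 1 of the 9 members above the floor, against 22.9% and 23.6% of 10692 genes. Fos differed by -0.48, Fosl2 by 0.43 and Jun by 0.06.

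For uterus, Fos, Junb and Arc were higher on the SHT array, by 1.89 (3.71-fold), 2.33 (5.03-fold) and 1.77 (at least 1.65-fold). The bound for Arc is under 2-fold because the mock uterus reading lay in the background spread. Upwards, 3 of 7 members above the floor passed 2-fold, and downwards none, against 12.5% and 9.04% of 10765 genes. Jun differed by 0.49, Egr2 by 0.55, Egr1 by -0.29 and Fosl2 by -0.05. These 2 arrays also differed in their markers: the sum of 5 squamous markers was 155567 on the SHT and 2986 on the mock array, that of 8 ovarian markers 4549 and 136242, and S100a9, a protein of neutrophils, read 37218 and 992. The part of these tissues in the differences was not tested.

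Averaged over the 3 labelled tissues, no member passed. The fit was limma's moderated test with labelled tissue as a block, two-sided, on 10763 genes. It used unscaled log2 values without the correction to the median gene, so its averages are not means of the differences above. Its SE is taken over the labelled tissues, so that it measures the spread between them and not between mice. Fos had an average difference of 0.93 ± 0.585 (SE), higher on the SHT array in 2 of 3 pairs, with an adjusted p of 1 (limma, Benjamini-Hochberg; unadjusted p = 0.187). The averages of the other 8 members tested ran from -0.13 (Fosl2) to 0.85 (Fosb), all at an adjusted p of 1. Arc, with the largest member differences under the labels brain and ovary, averaged 0.45 ± 2.17. Leaving out a labelled tissue moved these averages: Fos was 0.44 without uterus, 0.79 without brain and 1.57 without ovary, and Arc was -0.24, 3.29 and -1.72 in the same order. Fosb was 2.12 without brain and -0.37 without ovary. Over all genes 0 were called (0%), and 4 of 10763 had an unadjusted p under 0.05, none of them a member. Within each label the mock and SHT arrays carried markers of different tissues, and such differences enter the SE. The fit therefore cannot show whether SHT had an effect on the members.

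**Figure D2:**
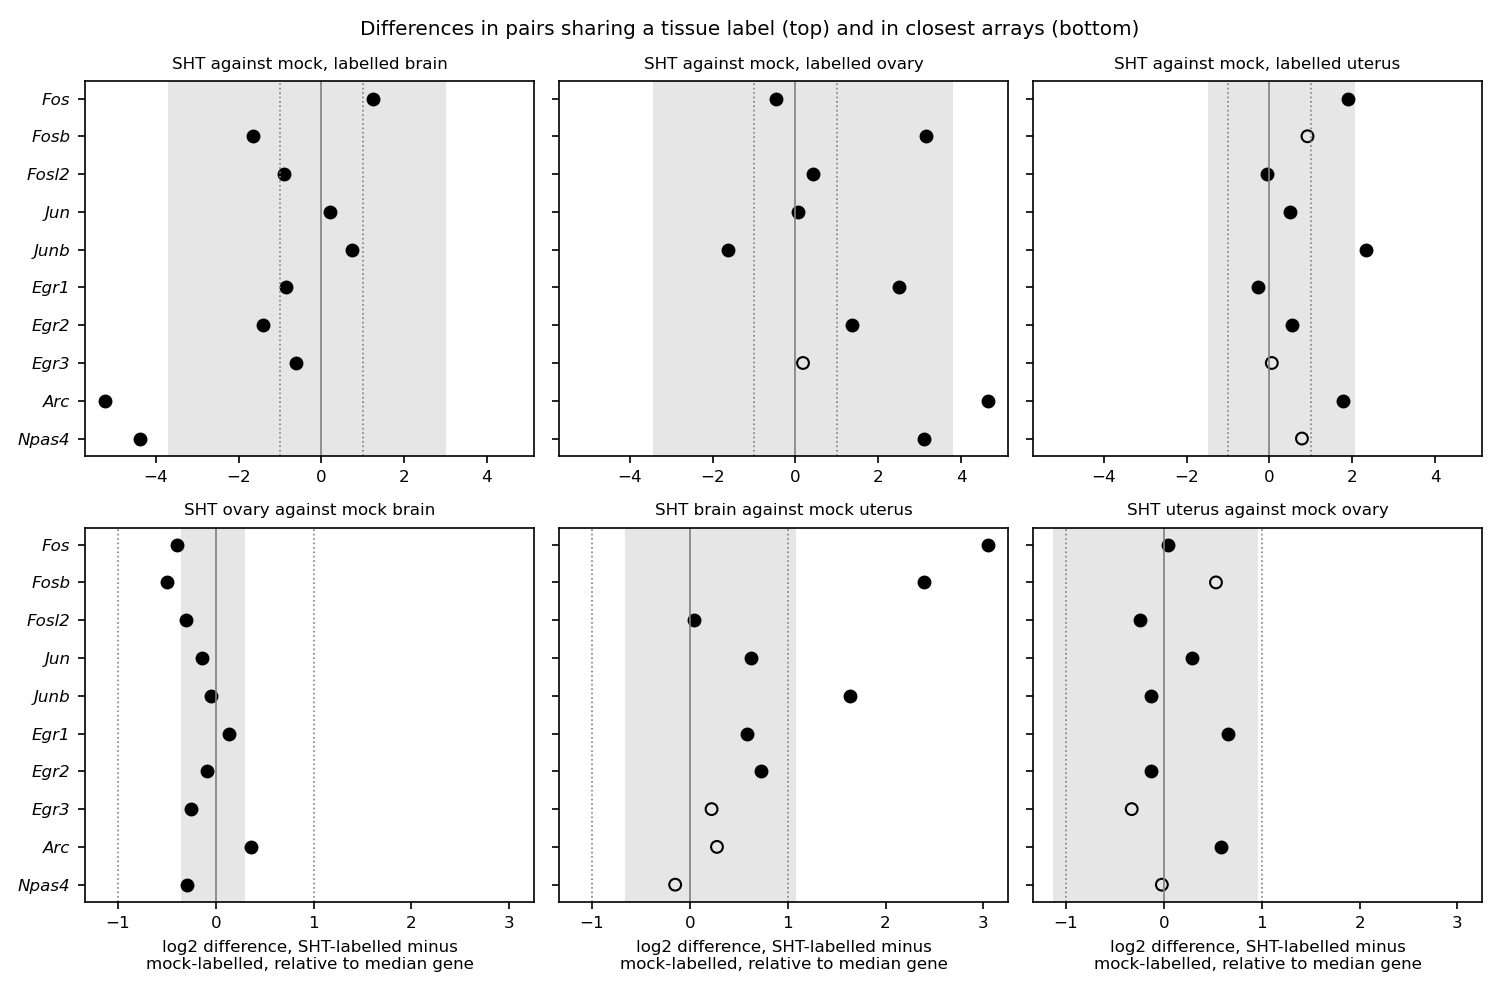
Difference of each member (log2, SHT-labelled minus mock-labelled array, relative to the median gene) in the 3 pairs that share a tissue label (top) and in the 3 pairs of closest arrays (bottom, on a narrower axis). Grey spans hold the middle 90% of genes above the level floor, dotted lines mark 2-fold, and open points are members under the floor. Arc and Npas4 lie near opposite ends in the pairs labelled brain and ovary, and Fos, Fosb and Junb lie right of the span between the SHT brain and mock uterus arrays.

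Set against the array it resembled most, each SHT-labelled array gave another picture. Between the SHT brain and mock uterus arrays, both with ovarian markers, Fos was 8.24-fold higher on the SHT brain array (a difference of 3.04), Fosb at least 2.56-fold (2.40) and Junb 3.11-fold (1.63). The difference of Fos was larger than that of 99.2% of genes in this pair. These 3 of the 7 members above the floor passed 2-fold upwards and none did downwards, against 5.56% and 0.901% of 10762 genes. Egr2 (0.73), Jun (0.63) and Egr1 (0.58) were also higher but under 2-fold, and Fosl2 differed by 0.04. Arc and Npas4 were inside the background spread on both arrays. The median gene was lower on the SHT brain array (-0.29), and without this correction Fos was 6.73-fold higher.

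Other tissue markers moved between the same 2 arrays. Uterine markers summed to 49011 on the SHT brain and 25272 on the mock uterus array over 6 genes, of which 1 and 3 lay in the background spread. Among them Hoxa10, a homeobox gene of the uterus, read 1163 and 324. Fat markers (2 genes) summed to 19539 and 33732, and squamous markers to 3115 and 2986. Their part in the Fos, Fosb and Junb differences was not tested.

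Between the SHT ovary and mock brain arrays, both with brain markers, all 10 members were above the floor and none was 2-fold different, where 0.0378% of 10586 genes were higher and 0.113% lower. Fosb (-0.50), Fos (-0.40), Fosl2 (-0.31) and Npas4 (-0.30) were lower on the SHT ovary array, and Arc was higher (0.36). The median size of a gene's difference in this pair was 0.12. The step in Fosb was larger than that of 97.9% of genes, and in Fos of 95.5%, although both are under 1.5-fold. Junb differed by -0.04, Egr2 by -0.09, Egr1 by 0.14 and Jun by -0.14.

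Between the SHT uterus and mock ovary arrays, both with squamous markers, none of the 7 members above the floor was 2-fold different, against 4.52% of 10690 genes higher and 6.06% lower. Egr1 was higher by 0.66 and Arc by 0.58, Fos differed by 0.04 and Junb by -0.13. The median gene here was brighter by 0.45 on the SHT uterus array, and the member differences are relative to that shift. Among squamous markers Krt14 read 64964 on the SHT uterus and 65580 on the mock ovary array, but Krt1 1813 and 25957 and Sprr3 991 and 16274. S100a9 read 37218 and 1007, and Hoxa10 6642 and 2805, in the same order. On the mock ovary array Krt14 and Krt10 both read 65580, at the top of the scale, so a difference in Krt14 could be hidden. The part of such tissue differences in the member readings was not tested.

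Other early response genes, a list of 26 of which 24 were measured, split between these patterns. Of 20 above the floor in the mean of the 6 arrays, 5 were higher on both the mock brain and SHT ovary arrays than on the rest, 11 were lower on both and 4 overlapped, against 28.9% and 35.2% of all genes. Egr4, of the Egr family, read 3985 and 3450 on those 2 arrays and 71.7, 70.3 and 162 on the SHT brain, mock uterus and SHT uterus arrays, but 847 on the mock ovary array. Nr4a2, an orphan nuclear receptor, read 2314 and 2462 there and from 83.5 to 389 elsewhere. Its relative Nr4a1 read 11849 and 9089 there and from 1898 to 4471 elsewhere. In the opposite direction, Klf4, a transcription factor of epithelia, read 350.2 and 264 on the Snap25-high arrays, both inside the background spread. It read 529 on the mock uterus, 5997 on the SHT brain, 10211 on the SHT uterus and 15040 on the mock ovary array. Zfp36, which promotes decay of cytokine messengers, read 524 and 290 on the Snap25-high arrays, both inside the background spread. On the other 4 it read from 2420 to 6228.

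Under the label brain this list had 6 of 20 genes past 2-fold upwards and 5 downwards, against 22.8% and 23.2% of all genes. Its median was 0.36, while the members had a median of -0.88. Under ovary it had 4 higher and 10 lower of 20, against 22.9% and 23.6% of all genes. Its median was -0.90, and that of the 9 members above the floor was 1.36. Under uterus 9 of 19 were higher and 1 lower, against 12.5% and 9.04% of all genes. Its median was 0.69, and that of the 7 members above the floor was 0.55. The median over all genes is 0 in each, since differences are relative to it.

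Between the SHT brain and mock uterus arrays, 3 of 19 genes of this list passed 2-fold upwards and none downwards, against 5.56% and 0.901% of all genes. They were Klf4 (13.9-fold, 5997 against 529), Ier3, an early gene of stress responses (7.24-fold, 12729 against 2151), and Ier2 (2.20-fold). These folds are relative to the pair's median gene and so are not ratios of the readings. Per1, a clock gene that is also induced early, was the lowest at -0.95. Jund, a Jun subunit with steady levels in most cells, ranged only from 12331 to 17803 over the 6 arrays, and was picked for mention after its values were seen.

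**Figure D3:**
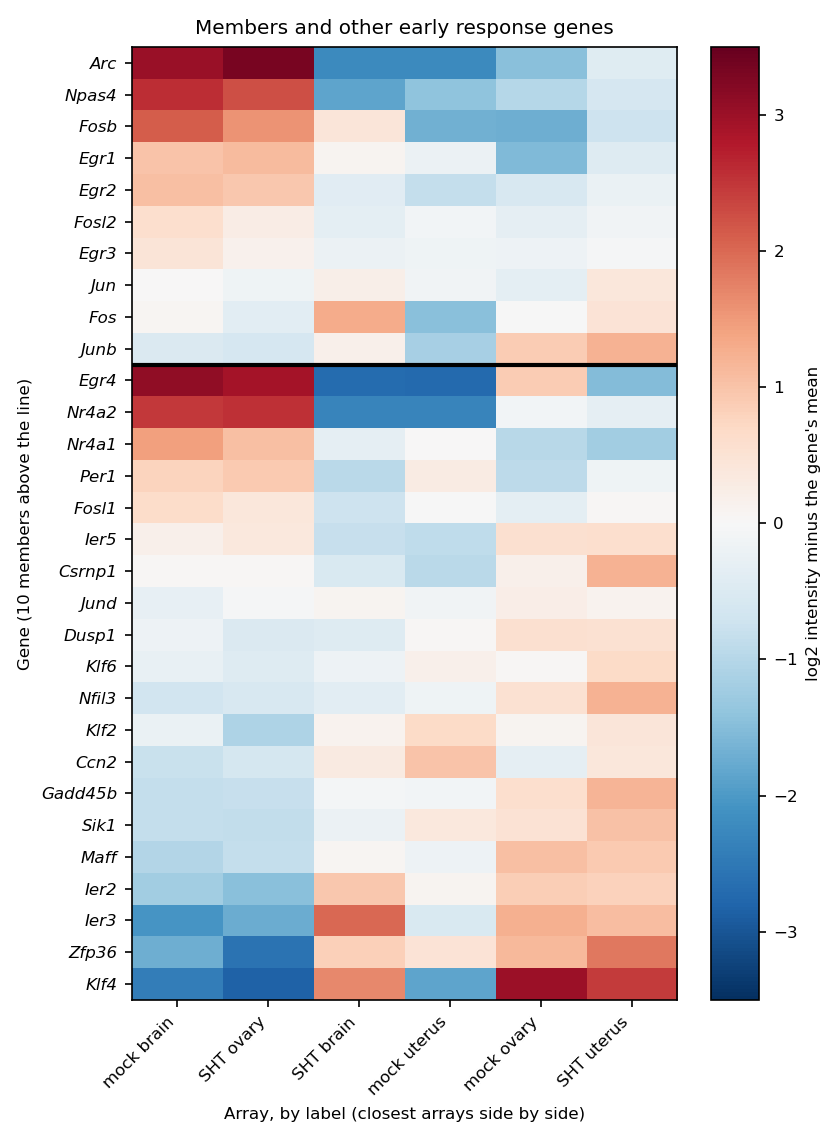
Log2 intensity minus the gene's mean over the 6 arrays, for the 10 members (above the line) and 20 other early response genes above the level floor (below it), each block sorted by the mean of the first 2 columns. Arc, Npas4, Egr4 and Nr4a2 are red in the mock brain and SHT ovary columns only, apart from Egr4 on the mock ovary array, while Klf4, Zfp36 and Ier3 are blue there.

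Genes of neuronal activity, a list of 14 all of which were measured, had 11 above the floor in the mean of the arrays. Of these 6 were higher on both Snap25-high arrays, 1 lower and 4 overlapped, beside 28.9% higher and 35.2% lower of all genes. Vgf, a secreted neuropeptide precursor, read 14748 and 16484 on the mock brain and SHT ovary arrays and from 143 to 280 elsewhere. Lingo1, a neuronal membrane protein, read 5721 and 6169 there and from 50.7 to 74.0 elsewhere. Gadd45g, a stress-response gene, read 1278 and 1200 there but 10839 on the mock ovary array. In the pairs labelled brain and ovary the list's medians were -1.19 and 1.05, with 7 of 11 lower and 2 higher in the first (all genes, 23.2% and 22.8%) and 6 of 11 higher and 2 lower in the second (all genes, 22.9% and 23.6%). Between the SHT brain and mock uterus arrays, Dusp6, a phosphatase that limits ERK signalling, was 4.80-fold and Gadd45g 2.29-fold higher, 2 of 8 genes above the floor, with none lower, against 5.56% and 0.901% of all genes.

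The genes closest in pattern to 4 members were found over the 6 arrays among 10763 genes, by the root mean square difference of log2 values after centring each gene. For Arc they were Tceal5 (0.11), Scn2b, a sodium channel subunit (0.13), and Prkcb, a protein kinase C (0.24). Arc lay in the background spread on 3 of the 6 arrays, where its match cannot be read. For Egr1 they were Ptprr, a phosphatase that acts on MAP kinases (0.16), Tarsl2 (0.18) and Mark1 (0.19). For Junb they were Fam241a (0.12), Lpar1, a lysophosphatidic acid receptor (0.15), and Pmepa1 (0.16). For Fos they were F3, the tissue factor of coagulation (0.22), Capn5, a calpain (0.24), and Ttc9 (0.37). F3 read 14220 on the SHT brain and 2612 on the mock uterus array, and Capn5 9275 and 1519.

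**Figure D4:**
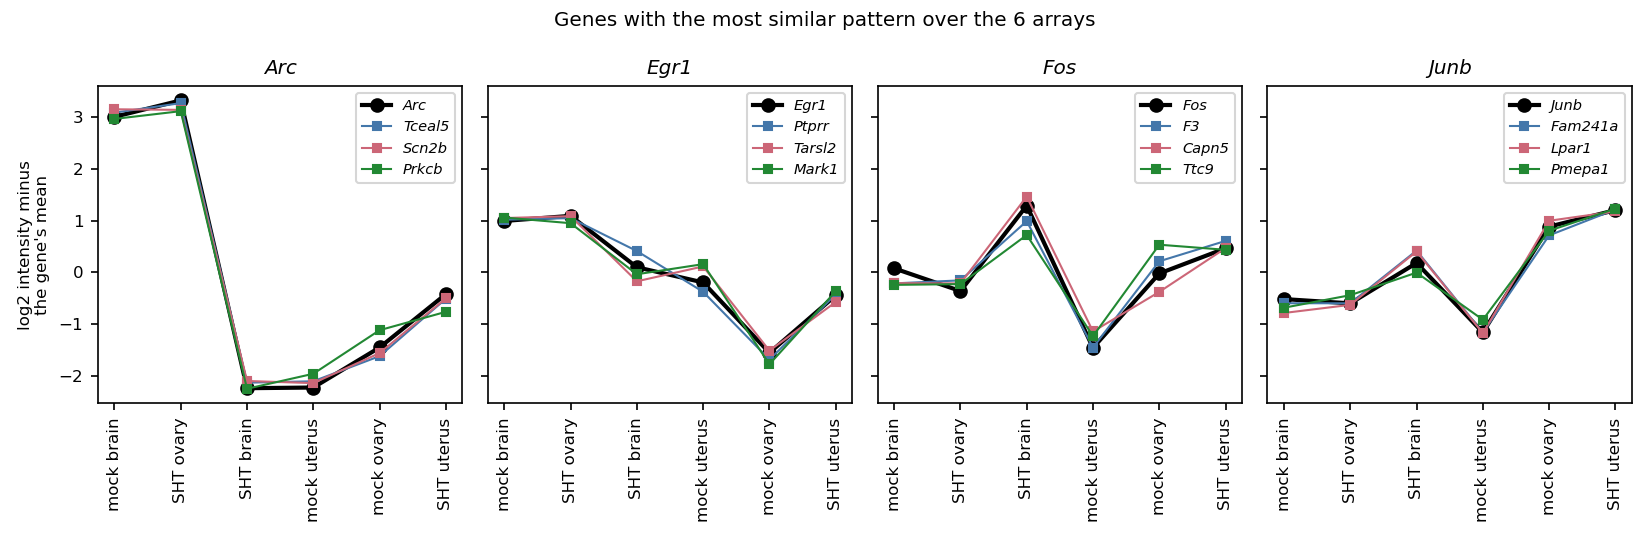
Log2 intensity minus the gene's mean over the 6 arrays for Arc, Egr1, Fos and Junb (black) and the 3 genes with the smallest root mean square difference from each (coloured). The Arc panel steps down after the first 2 arrays, and the Fos panel has its highest point on the SHT brain and its lowest on the mock uterus array.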

How the data were processed

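RNA from the 6 samples was amplified, labelled with Cy5 and hybridised, per the labels' protocols. The deposited table holds linear intensity for 26423 probes, and limma is named without version or role, per the submitters' processing notes. The treatment of background and scale was not given in the sources used here, so brightness differences between arrays can enter the values. Values were raised to each array's 5th percentile of positive values and put on the log2 scale (pandas 2.3.3), unscaled. Symbols were updated through RefSeq (GRCm38.p6). The brightest probe stood for a gene. The level floor was the median probe mean. With 1 array per group no pair was tested. The number of arrays limits precision. For the average over tissues limma 3.58.1 (R 4.3.3, eBayes with a trend) was used. The test was tried on simulated data first. The simulated arrays had no tissue differences, and their noise came from the closest arrays, mock brain and SHT ovary. That trial does not show how the test performs on these labels. Named genes were all members, up to 4 genes with the largest difference per list and pair, and the 3 nearest in pattern. Members, lists and rules were chosen with earlier results of these data known. Alternatives were other scalings, low limits, probe rules, thresholds and fits.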

Additional observations from a re-analysis of the deposited data

Results flagged for a closer look

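Members that differed by at least 2-fold in opposite directions under different tissue labels are listed here. The log2 differences are SHT minus mock, relative to the median gene of the pair. No difference between tissues was tested, and each rests on 1 array per group. Arc differed by -5.21 under the label brain (at least 19.1-fold lower), by 4.64 under ovary (at least 19.5-fold higher) and by 1.77 under uterus, where the bound is under 2-fold (at least 1.65-fold higher). Npas4 differed by -4.38 under brain (at least 5.89-fold lower) and 3.11 under ovary (at least 3.84-fold higher). Fosb differed by -1.65 under brain (3.14-fold lower) and 3.15 under ovary (at least 3.98-fold higher), and Egr2 by -1.41 (2.67-fold lower) and 1.36 (at least 2.53-fold higher). Junb differed by -1.62 under ovary and 2.33 under uterus. The high array of Arc, Npas4, Fosb and Egr2 in the pairs labelled brain and ovary was the array with high Snap25 (58204 and 60038), against 210 and 811 on the low array.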

How the results depend on the processing

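With 1 array per group, nothing here has a replicate check, and levels inside the background spread limit Arc, Npas4, Fosb, Egr2 and Egr3. Of the recomputed differences of single members in the 6 pairs, 299 of 300 kept their side of the 2-fold threshold under the alternative scalings, low limits and probe rule. No difference past 2-fold changed sign, but 9 of the 300, all of differences of at most 0.53 (log2), did, such as Fosb between the SHT uterus and mock ovary arrays (0.53 to -0.40 with the background spread as low limit). The exception in side was Arc in the pair labelled uterus, at 0.72 with values raised to the limit of the background spread, an alternative chosen after seeing the data. Counts of members moved by over 1.5 times only with the threshold. In the pair labelled brain 5 members became 3 at 3-fold and 9 at 1.5-fold. The 9 include Egr3, which lay inside the background spread on both arrays. At 1.5-fold the count was 5 between the SHT brain and mock uterus arrays and 1 between the SHT uterus and mock ovary arrays. The average SHT effect called 0 members in each of the limma settings run, including those without the block or without a labelled tissue. As tissue differences enter the SE in each setting, these 0 calls are no sign of stability.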

Other observations

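Regulators upstream of the members were read on the same arrays. Of 25 listed genes 23 were measured and 17 were above the level floor in the mean of the arrays, of which 6 were higher on both Snap25-high arrays than on the rest, 5 were lower on both and 6 overlapped. Among all genes 28.9% were higher on both and 35.2% lower, so these counts are near the background. Mef2c, a transcription factor of neurons and muscle, read 17021 on the mock brain and 15471 on the SHT ovary array and from 554 to 1603 elsewhere. Mapk8, a JNK kinase that phosphorylates Jun, read 4765 and 4801 on those arrays and from 338 to 856 elsewhere. Rps6ka1, a kinase downstream of ERK, ran the other way, with 1053 and 1093 there and from 3572 to 5928 elsewhere. In the pair labelled uterus none of 17 upstream genes was 2-fold different, where 12.5% of all genes were higher and 9.04% lower.

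Of 6 corepressors and feedback genes above the floor, 1 was 2-fold higher on the SHT brain than on the mock uterus array and 1 lower. The list's median was 0.22, and 5.56% of all genes were higher and 0.901% lower. Folds in this paragraph are relative to the median gene of the pair and so are not ratios of the readings. Nfkbia, the inhibitor of NF-kappa-B, read 14154 on the SHT brain and 4993 on the mock uterus array (3.47-fold). Nab2, a corepressor of Egr proteins, read 292 and 757 (2.12-fold lower). Between the SHT uterus and mock ovary arrays, 1 of 7 such genes was 2-fold higher and 0 lower (median 0.48), against 4.52% and 6.06% of all genes. It was Socs3, a feedback inhibitor of cytokine signalling, which read 7005 on the SHT uterus and 1369 on the mock ovary array (3.75-fold). Fos differed by 0.04 there. From the list of neuronal activity genes, 1 of 9 was 2-fold higher and 3 lower in that pair, with a median of -0.12. The largest step was in Dusp14, a phosphatase, 8.81-fold lower on the SHT uterus than on the mock ovary array, with 2333 against 15044.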
